A study of Homo sapiens with 42 samples.

Results

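The genes described here encode the lysosomal hydrolases, their cofactors, the main lysosomal membrane proteins and the vacuolar H+-ATPase (V-ATPase) that acidifies the organelle. The members were every gene symbol that starts with ATP6V, other than ATP6V0D2, and 41 named lysosomal genes. They came to 67 of the 28266 symbols in the count table, and 26 of them carried the ATP6V prefix. Of the 67, 62 passed the filter on low counts in each cell line.

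RNA was sequenced from IMR90 cells, a human lung fibroblast line, and from IMR90 ER:RAS cells, which express an oestrogen receptor fusion of RAS that 4-hydroxytamoxifen (4OHT) activates. ER:RAS cells received 100 nM 4OHT to enter oncogene-induced senescence (OIS), or DMSO. IMR90 cells received 50 µg/ml bleomycin, a DNA-damaging agent, for 24 h, or DMSO. All cells were cultured for 7 days, then given 1 µg/ml doxycycline for 72 h which induced either a control hairpin or 1 of 2 hairpins (shRNA 1 and shRNA 2) that target COPB2, a subunit of the COPI vesicle coat, and were collected at day 10. This gave 6 ER:RAS groups of 3 libraries and 6 IMR90 groups of 4 libraries, 42 in all. The ER:RAS groups differ from the IMR90 groups in both the transgene and the inducer, every group received doxycycline, and the controls for both models received DMSO.

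Lysosomes hold acid hydrolases that break down glycans, sulfated polysaccharides, lipids and proteins, and the V-ATPase pumps protons into them through a membrane ring (V0) driven by a cytosolic ATPase head (V1). Senescent fibroblasts are known for an enlarged lysosomal compartment, and senescence-associated β-galactosidase staining reads the lysosomal enzyme encoded by GLB1. Many lysosomal genes are known targets of TFEB and related transcription factors, which bind a short palindrome, the CLEAR element, close to the start of transcription.

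RefSeq promoter windows (GRCh38.p14, 250 bases before to 50 bases after the start) were matched for 47 of the 67 members. The core of the CLEAR element, TCACGTGA, a palindrome that reads alike on both strands, was found in the windows of 8 of these 47 members, or 17%, against 1.18% of the 27305 symbols with a window. The shorter E-box CACGTG, which lies inside the CLEAR core, was found in 31.9% of the member windows against 8.77% of all symbols. The stretches below are shown because they hold the CLEAR core (in capitals) and end at or before the start of transcription, and each is written 5′ to 3′ on the strand of its gene.
ATP6V1G1, chr9:114587680-114587747, plus strand: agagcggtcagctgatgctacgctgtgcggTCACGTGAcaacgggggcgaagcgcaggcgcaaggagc
ATP6V0D1, chr16:67481180-67481247, minus strand: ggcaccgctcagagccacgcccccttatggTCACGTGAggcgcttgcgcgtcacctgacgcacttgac
LAMP1, chr13:113297180-113297238, plus strand: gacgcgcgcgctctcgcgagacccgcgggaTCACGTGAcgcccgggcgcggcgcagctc
MCOLN1, chr19:7522552-7522619, plus strand: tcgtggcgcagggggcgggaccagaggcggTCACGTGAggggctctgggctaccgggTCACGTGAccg
CTSA, chr20:45891279-45891334, plus strand: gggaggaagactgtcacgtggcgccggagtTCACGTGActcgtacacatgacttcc
GAA, chr17:80101474-80101541, plus strand: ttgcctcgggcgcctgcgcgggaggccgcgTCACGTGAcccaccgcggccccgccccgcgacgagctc
GALNS, chr16:88857085-88857152, minus strand: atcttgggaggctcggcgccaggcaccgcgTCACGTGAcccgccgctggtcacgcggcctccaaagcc

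The windows of LAMP1, GAA and MCOLN1 hold the motif at 2 places, and both fall within the printed stretch for MCOLN1. The motif in CLN3 lies across the start itself and is not printed. Of the 8 members with the motif, ATP6V1G1 was called higher in OIS, CLN3 and LAMP1 were called lower, and 5 were not called, with log2 fold changes from -1.16 to 1.06 around a median of -0.18. After bleomycin only ATP6V1G1 of the 8 was called, and the median log2 fold change was 0.06. The 35 tested members whose window lacked the motif had medians of 0.11 and 0.10. A match describes the letters of the window and says nothing about binding in these cells.

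The libraries held between 13148194 and 23597310 counts. Levels are given as CPM, counts relative to library size and scaled by the trimmed mean of M values. COPB2 itself ranged from 267 to 620.4 CPM over 14 control-shRNA libraries and from 33.9 to 122 CPM over the 28 knockdown libraries, with no overlap. All 10 fibroblast markers examined were expressed at 1 CPM or more in every control-shRNA group. The summed level of 10 macrophage markers was 0.357 to 0.570 CPM in the ER:RAS DMSO libraries, 1.77 to 3.43 in the 4OHT libraries, 0.138 to 0.489 in the IMR90 DMSO libraries and 2.07 to 2.99 after bleomycin. The 6 endothelial markers summed to 82.9 to 125 CPM in the 4OHT libraries against 1.68 to 4.63 CPM with DMSO. Over all 42 libraries CLDN5 reached 74.9 CPM and TIE1 53.9 CPM. VWF reached at most 10.2 CPM, CDH5 3.10, PECAM1 2.91 and KDR 0.846. All but KDR had a mean of 1 CPM or more in the 4OHT group, and VWF alone in the ER:RAS DMSO group. The 8 epithelial markers summed to at most 6.12 CPM in each of the 4 groups. The part of these transcripts in the results was not tested, and a smaller share of a cell type and less of an RNA per cell cannot be told apart in bulk samples. The labels do not say that replicates came from separate cultures, so each p-value measures the spread between these libraries.

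The lysosomal genes did not move as a block in either model. In OIS, 13 of the 62 tested members were higher and 15 lower than with DMSO at an adjusted p under 0.05 (edgeR quasi-likelihood test, Benjamini-Hochberg adjustment over all genes), and their median log2 fold change was 0.06 against -0.08 over all genes. The corresponding shares were 21% higher and 24.2% lower, beside 15.5% and 20.2% of the 14297 genes tested. After bleomycin, 14 members were higher and 7 lower, that is 22.6% and 11.3% against 15.4% and 15.8% of 14783 genes, with a median log2 fold change of 0.03. The 2 groups of libraries did not overlap for 29 members in OIS, 46.8% against 38.5% of all genes, and for 19 members after bleomycin, 30.6% against 28% of all genes. With DESeq2 size factors the median over all genes in OIS was 0.04 instead of -0.08, and the members' calls were 13 higher and 10 lower.

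Of the 19 tested V0 and V1 subunits, 7 were higher and 1 lower in OIS, with a median log2 fold change of 0.58. After bleomycin 7 were higher and 1 lower, with a median of 0.36. V1 levels summed to 1460 to 1938 CPM with 4OHT against 1018 to 1067 CPM with DMSO. V0 sums overlapped, at 1078 to 3312 against 914 to 1525 CPM. ATP6V0A1, ATP6V0B and ATP6V0C were highest in 4OHT replicate 1, whose scaling factor of 0.611 was the lowest of the 42 libraries. Without it the OIS call of ATP6V0C was lost and the other 2 were kept. Of the 34 hydrolases and cofactors, 5 were higher and 10 lower in OIS, with a median of -0.46. After bleomycin 6 were higher and 6 lower, with a median of -0.04. In OIS 36.8% of the subunits were higher and 5.26% lower, and of the hydrolases 14.7% and 29.4%, against 15.5% and 20.2% of all genes. After bleomycin the shares were 36.8% and 5.26% of the subunits, 17.6% and 17.6% of the hydrolases, and 15.4% and 15.8% of all genes. With DESeq2 size factors the V-ATPase counts were again 7 and 1 in both models, and the hydrolase counts were 5 and 7 in OIS and 7 and 6 after bleomycin. With only the groups compared in the fit, ATP6V0B was the only subunit still called higher in OIS. That fit also lost the OIS calls of the hydrolases and cofactors CTSL, CTSO, GALC, IDUA, LIPA, NPC2 and SGSH. After bleomycin it lost the higher calls of ATP6V0C and ATP6V1H. The difference between the V-ATPase and hydrolase groups was not tested.

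**Figure D1:**
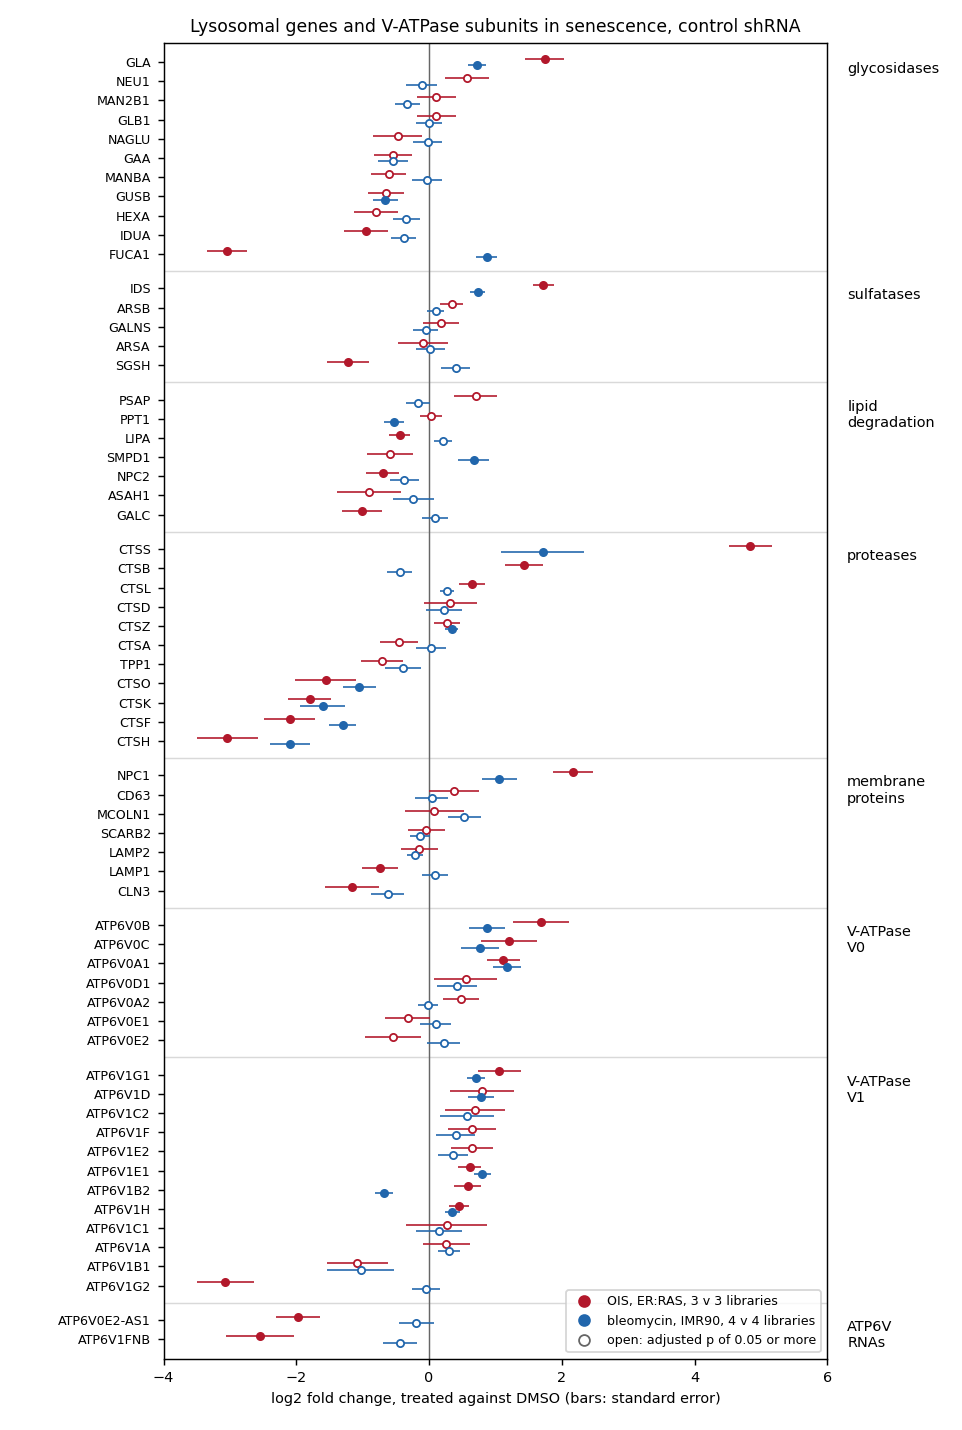
The log2 fold change of each tested member against DMSO in OIS (red, 3 against 3 ER:RAS libraries) and after bleomycin (blue, 4 against 4 IMR90 libraries), by class, with bars of 1 standard error and filled points for an adjusted p under 0.05. CTSS has the highest point in OIS at 4.84, most V-ATPase points lie to the right of 0, and FUCA1 lies at -3.04 in OIS and 0.87 after bleomycin.

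Per kilobase of transcript, which allows genes to be compared, CD63 was the most abundant member in each control-shRNA group, at a mean of 1706 CPM per kb in ER:RAS cells with DMSO and 1242 in IMR90 cells with DMSO. CD63 is a tetraspanin of late endosomes and lysosomes, and it was not called in either model. PSAP, the precursor of the saposins that help to degrade sphingolipids, and CTSB, a cysteine protease, held the next ranks. CTSB passed PSAP in OIS, at 2081 CPM per kb against 1370, where with DMSO it had stood at 721 against 781. Their ranges over libraries overlapped in both groups, at 1608 to 2702 for CTSB and 898 to 2178 for PSAP with 4OHT.

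Among the 11 glycosidases, GLA was higher in both models and FUCA1 moved in opposite directions. GLB1, the β-galactosidase read by the senescence stain, showed no call in either. It was at 115, 168 and 73.6 CPM with DMSO and at 161, 126 and 120.4 CPM with 4OHT, and at 165, 107, 75.3 and 105 CPM with DMSO and 121, 131, 93.4 and 117 CPM after bleomycin. The groups overlapped in both models. Its log2 fold change was 0.11 ± 0.29 (SE) in OIS, with an adjusted p of 0.818 and an interval of 2 SE from -0.47 to 0.69, and 0.00 ± 0.20 after bleomycin, with an adjusted p of 0.992 and an interval from -0.40 to 0.41.

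GLA, the α-galactosidase that trims globosides, was at 18.9, 28.4 and 18.2 CPM with DMSO and at 114, 64.0 and 56.0 CPM with 4OHT. In IMR90 cells GLA was at 21.5, 15.7, 15.8 and 15.5 CPM with DMSO and at 31.8, 27.2, 27.4 and 28.4 CPM after bleomycin. Every treated library lay above every DMSO library in both models. GLA rose by 1.74 ± 0.30 on the log2 scale in OIS (adjusted p = 0.000292) and by 0.72 ± 0.14 after bleomycin (adjusted p = 0.000539).

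FUCA1, the lysosomal α-L-fucosidase, was at 14.6, 16.03 and 10.7 CPM with DMSO and at 2.35, 1.322 and 1.71 CPM with 4OHT. In IMR90 cells FUCA1 stood at 16.7, 13.6, 13.2 and 13.5 CPM with DMSO and at 30.1, 27.9, 27.8 and 20.2 CPM after bleomycin. The groups did not overlap in either model, and the 2 models lay on opposite sides of similar DMSO levels. FUCA1 fell by 3.04 ± 0.30 on the log2 scale in OIS (adjusted p = 1.54e-06), which is 8.21-fold, and rose by 0.87 ± 0.16 after bleomycin (adjusted p = 0.000213).

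GUSB, the β-glucuronidase, was lower after bleomycin, at 22.1, 23, 17.03 and 23.3 CPM against 39.1, 34.8, 24.9 and 33.8 CPM, without overlap (log2 fold change -0.66 ± 0.19, adjusted p = 0.00916). In OIS its values of 31.7, 19.5 and 17.2 CPM overlapped the 32.05, 41.2 and 26.7 CPM of the DMSO libraries, and the change of -0.65 ± 0.27 was not called (adjusted p = 0.0744), although it was called without 4OHT replicate 1 (-0.89, adjusted p = 0.0263). IDUA, which removes iduronic acid from glycosaminoglycans, was lower in OIS by a log2 fold change of -0.95 ± 0.33 (adjusted p = 0.0371), a call lost when any library other than 4OHT replicate 1 was left out (-1.02 to -0.64, adjusted p from 0.0611 to 0.192). The other 7 glycosidases (GAA, HEXA, MAN2B1, MANBA, NAGLU and NEU1, with GLB1) were called in neither model, and their log2 fold changes ran from -0.80 for HEXA to 0.57 for NEU1 in OIS.

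Of the 5 sulfatases, IDS was higher in both models. IDS, which removes sulfate from dermatan and heparan sulfate, was at 107, 121 and 99.9 CPM with DMSO and at 337, 425 and 391 CPM with 4OHT. In IMR90 cells IDS was at 112, 90.7, 102 and 102 CPM with DMSO and at 176, 164, 177 and 169.5 CPM after bleomycin. The replicates were close and the groups far apart in both models. The log2 fold changes of IDS were 1.72 ± 0.16 (adjusted p = 1.00e-06) and 0.73 ± 0.12 (adjusted p = 0.000104), and reads of IDS can be shared with a nearby pseudogene.

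SGSH, the heparan N-sulfatase, went down in OIS. It was at 94.9, 132 and 76.1 CPM with DMSO and at 74.0, 34.8 and 30.98 CPM with 4OHT, without overlap, and fell by 1.22 ± 0.32 on the log2 scale (adjusted p = 0.00807). The call was lost without 4OHT replicates 2 or 3 or DMSO replicate 2 (-0.99 to -0.95, adjusted p from 0.0592 to 0.0711). After bleomycin SGSH was at 107, 124, 79.5 and 102 CPM against 99.8, 72.9, 61.0 and 72.3 CPM, an overlapping difference of 0.40 ± 0.22 that was not called (adjusted p = 0.176). GALNS, which removes sulfate from keratan and chondroitin sulfate, was at 61.0, 91.5 and 45.9 CPM with DMSO and at 109, 68.9 and 62.1 CPM with 4OHT, and at 85.7, 51.9, 45.5 and 56.2 CPM with DMSO and 63.6, 60.0, 46.9 and 64.2 CPM after bleomycin. The groups overlapped in both models and GALNS was not called (0.18 ± 0.27 and -0.05 ± 0.19), nor were ARSA and ARSB.

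Of the 7 genes of lipid degradation, 3 were lower in OIS and 1 was higher and 1 lower after bleomycin. GALC, which cleaves galactosylceramide, was at 29.2, 23.3 and 29.5 CPM with DMSO and at 11.46, 13.8 and 18.2 CPM with 4OHT, and fell by 1.01 ± 0.30 on the log2 scale (adjusted p = 0.0148). These groups did not overlap, but the call was lost without 4OHT replicate 1 (-0.81, adjusted p = 0.0598) or without 4OHT replicate 2 (-0.91, adjusted p = 0.0548). After bleomycin GALC was at 27.1, 31.4, 34.97 and 48.1 CPM against 26.1, 33.8, 36.6 and 32.8 CPM, with overlap (log2 fold change 0.09 ± 0.19, adjusted p = 0.755).

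LIPA, the acid lipase that releases cholesterol and fatty acids from lipoproteins, was at 49.6, 58.4 and 43.5 CPM with DMSO and at 38.5, 38.3 and 42.1 CPM with 4OHT. The 4OHT values lay just below the lowest DMSO value, and the change of -0.44 ± 0.16 (adjusted p = 0.0412) lost its call when any of the 6 libraries was left out (-0.46 to -0.30, adjusted p from 0.0520 to 0.202). After bleomycin LIPA was at 68.2, 67.4, 76.3 and 55.0 CPM against 64.5, 50.9, 55.3 and 55.0 CPM, with overlap and no call (0.21 ± 0.14, adjusted p = 0.261), although LIPA was called when replicate 4 of every bleomycin group was left out (0.32, adjusted p = 0.0451). NPC2, a soluble cholesterol carrier, was lower in OIS by -0.70 ± 0.25 (adjusted p = 0.0427), a call also lost without any of the 6 libraries (-0.79 to -0.48, adjusted p from 0.0550 to 0.236).

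PPT1, which strips palmitate from proteins, was lower after bleomycin, at 47.2, 44.5, 36.6 and 48.0 CPM against 74.7, 62.1, 51.2 and 61.7 CPM, and the groups did not overlap. Its log2 fold change was -0.53 ± 0.15 (adjusted p = 0.00802; 0.0574 with only the groups compared), beside 0.03 ± 0.17 in OIS, where 79.1, 69.6 and 75.8 CPM overlapped 66.9, 79.8 and 59.5 CPM. SMPD1, the acid sphingomyelinase, was higher after bleomycin, at 295, 313, 232 and 226 CPM against 229, 149, 133 and 147 CPM, with a log2 fold change of 0.67 ± 0.23 (adjusted p = 0.0302). The highest DMSO library overlapped the lowest bleomycin library, and the call was lost without bleomycin replicates 1 or 2 or DMSO replicates 2, 3 or 4 (0.59 to 0.66, adjusted p from 0.0703 to 0.0841). In OIS SMPD1 was at 227, 108 and 90.7 CPM against 191, 256 and 147 CPM, not called (-0.59 ± 0.35, adjusted p = 0.212), and the call was gained without 4OHT replicate 1 (-1.02, adjusted p = 0.0361).

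PSAP was at 2050, 2755 and 1637 CPM with DMSO and at 5986, 2838 and 2468 CPM with 4OHT. The first 4OHT library stood far above the others, the second lay just above the highest DMSO library and the third within the DMSO range. The change of 0.70 ± 0.32 was not called (adjusted p = 0.106), although it was without 4OHT replicate 3 (0.98, adjusted p = 0.0459) and with all 42 libraries in one fit (0.81, adjusted p = 0.0214). In IMR90 cells PSAP was at 2597, 1845, 1686 and 1795 CPM with DMSO and 2040, 1926, 1499 and 1684 CPM after bleomycin, again overlapping. ASAH1, the acid ceramidase, was called in neither model.

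The 11 proteases held the widest range of changes. CTSS, a cysteine cathepsin that stays active at neutral pH, was at 6.11, 3.23 and 5.20 CPM with DMSO and at 140.3, 128 and 182 CPM with 4OHT. In IMR90 cells CTSS was at 4.31, 3.44, 3.03 and 3.58 CPM with DMSO and at 9.43, 7.28, 6.44 and 24.6 CPM after bleomycin. All treated libraries lay above all DMSO libraries, and bleomycin replicate 4 stood well above the other 3. CTSS rose by 4.84 ± 0.32 on the log2 scale in OIS (adjusted p = 2.44e-08), which is 28.7-fold, and by 1.71 ± 0.62 after bleomycin (adjusted p = 0.0412). The bleomycin call was lost without any library other than bleomycin replicates 2 and 3 (1.11 to 1.81, adjusted p from 0.0503 to 0.188), and the lowest change, 1.11, was that without bleomycin replicate 4. That call was kept when replicate 4 of every bleomycin group, COPB2 shRNA groups included, was left out of the fit. CTSS is abundant in macrophages, and the summed level of the 10 macrophage markers was also higher in both treated groups. It was at 1.77 to 3.43 CPM with 4OHT against 0.357 to 0.570 CPM with DMSO and at 2.07 to 2.99 CPM after bleomycin against 0.138 to 0.489 CPM. The sums of the 2 treated groups overlapped, while CTSS was at 128 CPM or more with 4OHT and at most 24.6 CPM after bleomycin. In the 4OHT libraries only CSF1R had a mean of 1 CPM or more, and ITGAM, TYROBP, AIF1 and MRC1 had no count. After bleomycin no marker had a mean of 1 CPM or more, and 3 were at or under 3 counts in every library. None of the 10 markers was at 0 in all 4 bleomycin libraries. The part of such cells or transcripts in the CTSS values was not tested.

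CTSB, among the most abundant cathepsins, was at 2432, 3654 and 1989 CPM with DMSO and at 10080, 7215 and 6002 CPM with 4OHT, without overlap. It rose by 1.43 ± 0.28 on the log2 scale (adjusted p = 0.000839). In IMR90 cells CTSB was at 3076, 2225, 1650 and 2345 CPM with DMSO and 1881, 1991, 1433 and 1683 CPM after bleomycin. These groups overlapped, and the change of -0.44 ± 0.19 was not called (adjusted p = 0.0878), although it was without DMSO replicate 3 (-0.54, adjusted p = 0.0435).

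4 cathepsins were lower in both models. CTSH, which acts mainly as an aminopeptidase, was at 11.3, 15.9 and 9.81 CPM with DMSO and at 2.44, 0.991 and 1.39 CPM with 4OHT, and at 24.1, 17.3, 10.4 and 16.4 CPM with DMSO and 4.31, 4.82, 3.11 and 3.89 CPM after bleomycin. The groups of CTSH did not overlap, and the log2 fold changes were -3.04 ± 0.46 (adjusted p = 8.96e-05) and -2.10 ± 0.30 (adjusted p = 1.68e-05). CTSF had changes of -2.10 ± 0.38 and -1.30 ± 0.20, CTSK, a strong collagenase, of -1.80 ± 0.33 and -1.60 ± 0.34, and CTSO of -1.56 ± 0.46 and -1.05 ± 0.25. CTSF, CTSK and CTSO were called in both. The OIS call of CTSO was lost without 4OHT replicate 1 (-1.18, adjusted p = 0.0502) and with only the groups compared in the fit (-1.52, adjusted p = 0.0524).

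CTSL, the main endopeptidase of its family in many tissues, was higher in OIS (0.65 ± 0.20, adjusted p = 0.0163), a call lost without 4OHT replicate 1 (0.43, adjusted p = 0.0614), and its reads can be shared with pseudogenes. CTSZ, a carboxypeptidase, was higher after bleomycin (0.34 ± 0.10, adjusted p = 0.0138), a call lost with no filter on low counts (0.32, adjusted p = 0.0810) and with only the groups compared in the fit (0.38, adjusted p = 0.0630). CTSD, the aspartic cathepsin, CTSA, which protects β-galactosidase and sialidase, and TPP1, a tripeptidyl peptidase, were called in neither model.

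**Figure D2:**
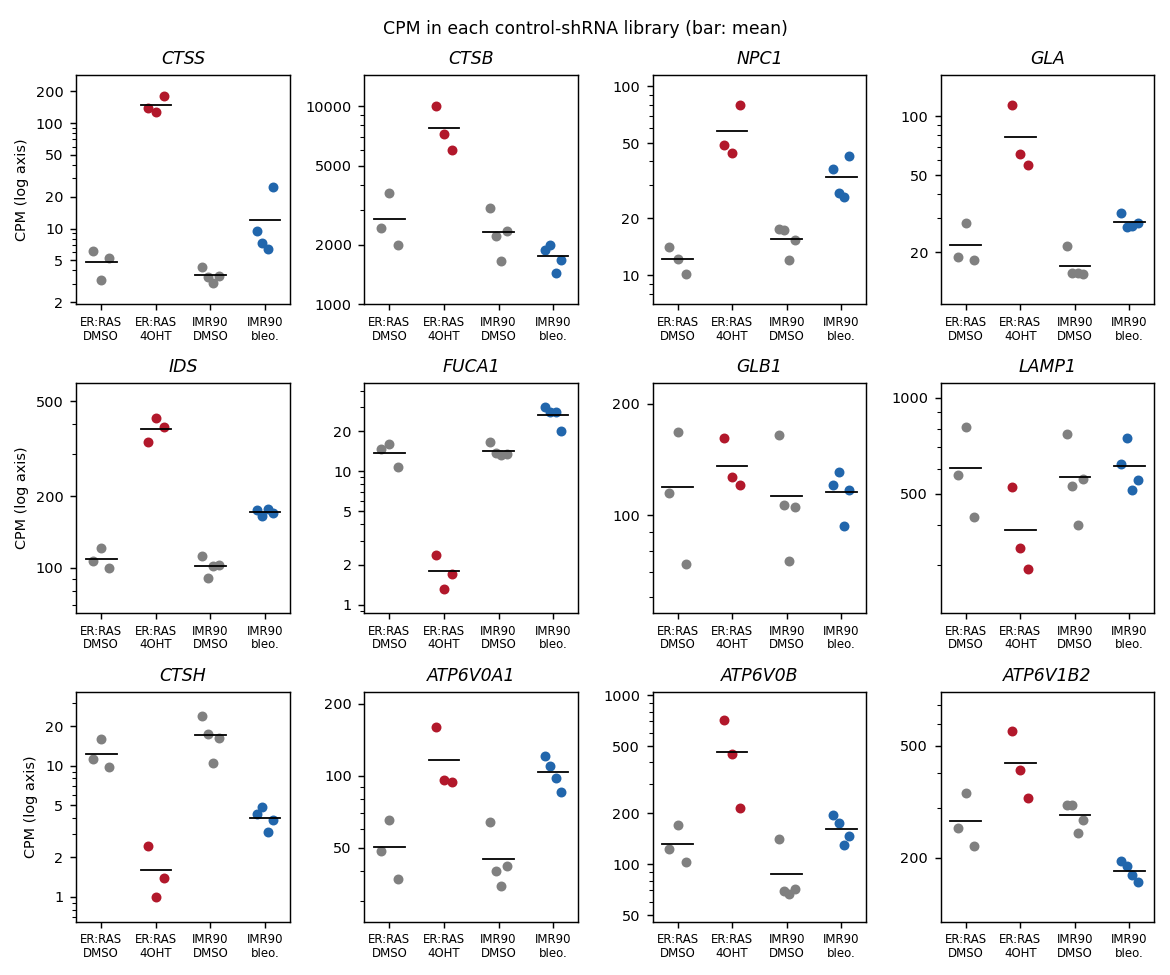
CPM on a log axis in each control-shRNA library of the 4 groups for 12 members, with a bar at the group mean. The 3 red 4OHT points of CTSS lie between 128 and 182 CPM above DMSO points of at most 6.11 CPM, the FUCA1 points lie below DMSO in OIS and above it after bleomycin, and the GLB1 points overlap in all 4 groups.

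Of the 7 membrane proteins, NPC1 was higher in both models. NPC1, which moves cholesterol out of the lysosome, was at 14.2, 12.2 and 10.1 CPM with DMSO and at 49.2, 44.5 and 80.0 CPM with 4OHT. In IMR90 cells NPC1 was at 17.5, 17.3, 12.1 and 15.4 CPM with DMSO and at 36.3, 27.3, 26 and 42.9 CPM after bleomycin. No groups overlapped, and the log2 fold changes were 2.17 ± 0.30 (adjusted p = 4.48e-05) and 1.06 ± 0.26 (adjusted p = 0.00367).

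LAMP1, a heavily glycosylated protein that lines the lysosomal membrane, was at 574, 812 and 422 CPM with DMSO and at 526, 339 and 290 CPM with 4OHT. These groups overlapped, and the change of -0.74 ± 0.27 (adjusted p = 0.0460) was lost without 4OHT replicates 2 or 3 or without DMSO replicates 1 or 2 (-0.72 to -0.44, adjusted p from 0.133 to 0.298). With DESeq2 size factors LAMP1 was not called either (-0.62, adjusted p = 0.158). After bleomycin LAMP1 was at 619, 749.8, 515 and 554 CPM against 769.9, 529, 398 and 555 CPM, with overlap (0.09 ± 0.20, adjusted p = 0.794).

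CLN3, a membrane protein whose loss causes juvenile Batten disease, was at 39.95, 60.0 and 28.1 CPM with DMSO and at 32.7, 17.8 and 11.3 CPM with 4OHT. The groups overlapped, and the change of -1.16 ± 0.41 (adjusted p = 0.0393) was lost without 4OHT replicates 2 or 3 or DMSO replicates 1 or 2 (-1.14 to -0.81, adjusted p from 0.0991 to 0.202) and with DESeq2 size factors (adjusted p = 0.0961). After bleomycin CLN3 was at 30.6, 30.2, 20.8 and 21.1 CPM against 56.2, 36.7, 26.2 and 36.2 CPM, and the change of -0.62 ± 0.25 was not called (adjusted p = 0.0611), and the call was gained without DMSO replicate 3 (-0.74, adjusted p = 0.0349). LAMP2, SCARB2, which carries glucocerebrosidase to the lysosome, CD63 and the calcium channel MCOLN1 were called in neither model.

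Among the 7 tested V0 subunits, ATP6V0A1, ATP6V0B and ATP6V0C were higher in both models and none was lower. ATP6V0A1, the a1 form of the large subunit through which protons pass, was at 48.6, 65.6 and 37.1 CPM with DMSO and at 160.5, 96.5 and 94.1 CPM with 4OHT. In IMR90 cells ATP6V0A1 was at 63.8, 39.8, 34.5 and 42.1 CPM with DMSO and at 121, 110.5, 97.6 and 85.8 CPM after bleomycin. The groups did not overlap, and the changes were 1.12 ± 0.25 (adjusted p = 0.00259) and 1.18 ± 0.21 (adjusted p = 0.000151). With only the groups compared in the fit, the OIS call was lost (1.13, adjusted p = 0.0510).

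ATP6V0B, a proteolipid of the rotating ring, was at 123, 171 and 104 CPM with DMSO and at 718, 451 and 215 CPM with 4OHT, without overlap and with a wide spread among the 4OHT libraries (1.69 ± 0.42, adjusted p = 0.00494). After bleomycin ATP6V0B was at 196, 176, 131 and 146 CPM against 142, 69.7, 66.97 and 71.5 CPM, where 1 DMSO library overlapped (0.87 ± 0.27, adjusted p = 0.0155), and without DMSO replicate 4 the adjusted p was 0.0520, with a change of 0.79. ATP6V0C, the other ring proteolipid, which has several pseudogenes, changed by 1.21 ± 0.42 (adjusted p = 0.0350) and 0.77 ± 0.29 (adjusted p = 0.0467). The ATP6V0C call in OIS was lost without 4OHT replicates 1 or 2 or DMSO replicates 1 or 3 (0.89 to 1.25, adjusted p from 0.0758 to 0.155). Its bleomycin call was lost without bleomycin replicates 1 or 2 or DMSO replicates 2, 3 or 4 (0.66 to 0.73, adjusted p from 0.106 to 0.123).

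ATP6V0A2, the a2 form, was at 19.97, 20.5 and 20.4 CPM with DMSO and at 24.0, 28.8 and 37.5 CPM with 4OHT, without overlap but not called (0.48 ± 0.27, adjusted p = 0.182). ATP6V0A2 was called in OIS by the DESeq2 Wald test (0.60, adjusted p = 0.0362) and with all 42 libraries in one fit (0.57, adjusted p = 0.0140). In IMR90 cells it was at 21.6, 24.0, 27.8 and 26.4 CPM with DMSO and 24.6, 22.2, 25.7 and 28.1 CPM after bleomycin (-0.02 ± 0.15). ATP6V0E2, a form of the small e subunit, was at 61.3, 86.6 and 50.2 CPM with DMSO and at 85.0, 39.3 and 23.2 CPM with 4OHT (-0.54 ± 0.42, adjusted p = 0.359). In IMR90 cells ATP6V0E2 was at 63.4, 39.1, 36.5 and 37.0 CPM with DMSO and 60.5, 63.2, 39.6 and 45.4 CPM after bleomycin (0.22 ± 0.25, adjusted p = 0.5501), so its groups overlapped in both models. ATP6V0D1 and ATP6V0E1 were called in neither.

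Of the 12 tested V1 subunits, 4 were higher and 1 lower in each model. ATP6V1E1, part of the stator stalk that holds the head in place, was at 191, 215 and 208 CPM with DMSO and at 423, 338 and 252 CPM with 4OHT, and at 199, 153, 151 and 171 CPM with DMSO and 289.7, 320.1, 294 and 290.2 CPM after bleomycin. The groups did not overlap, and ATP6V1E1 rose by 0.61 ± 0.18 on the log2 scale (adjusted p = 0.0151) and 0.80 ± 0.13 (adjusted p = 8.56e-05). Its OIS call was lost without 4OHT replicate 1 (0.49, adjusted p = 0.0710) or DMSO replicate 1 (0.62, adjusted p = 0.0641).

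ATP6V1G1, another stator subunit and the member with the CLEAR core that was called in both models, was at 86.4, 43.1 and 100.2 CPM with DMSO and at 162, 183 and 175 CPM with 4OHT. In IMR90 cells ATP6V1G1 was at 66.3, 70.3, 77.3 and 74.8 CPM with DMSO and at 113, 106, 124 and 139.8 CPM after bleomycin. The groups did not overlap, with changes of 1.06 ± 0.32 (adjusted p = 0.0160; 0.0572 with only the groups compared) and 0.71 ± 0.14 (adjusted p = 0.000413). ATP6V1H, a regulator of the head, changed by 0.45 ± 0.15 (adjusted p = 0.0334) and 0.35 ± 0.11 (adjusted p = 0.0221), calls lost without 4OHT replicate 1 or DMSO replicates 1 or 2 in OIS (0.36 to 0.53, adjusted p from 0.0605 to 0.113) and without bleomycin replicates 1 or 2 or DMSO replicate 4 after bleomycin (0.31 to 0.35, adjusted p from 0.0693 to 0.0824). ATP6V1D, a part of the central rotor, was called only after bleomycin (0.78 ± 0.20, adjusted p = 0.00446), beside 0.80 ± 0.48 in OIS (adjusted p = 0.220).

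ATP6V1B2, the B subunit next to the ATP-binding site, was higher in OIS and lower after bleomycin. It was at 254, 339 and 219.6 CPM with DMSO and at 564, 409 and 327 CPM with 4OHT, where 1 DMSO library overlapped, and changed by 0.58 ± 0.20 (adjusted p = 0.0373). That call was lost without 4OHT replicates 1 or 2 or DMSO replicates 1 or 3 (0.41 to 0.68, adjusted p from 0.0609 to 0.167). In IMR90 cells ATP6V1B2 was at 307, 307, 244 and 272 CPM with DMSO and at 194, 186, 174 and 164 CPM after bleomycin, without overlap (-0.68 ± 0.13, adjusted p = 0.000296).

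ATP6V1G2, a form of subunit G known from neurons, was at 4.64, 5.58 and 2.79 CPM with DMSO and at 0.361, 0.661 and 0.570 CPM with 4OHT, without overlap, and fell by 3.07 ± 0.43 on the log2 scale (adjusted p = 4.50e-05). After bleomycin ATP6V1G2 was at 2.87, 4.64, 3.68 and 3.27 CPM against 4.49, 3.81, 3.28 and 3.00 CPM, with overlap (-0.04 ± 0.21, adjusted p = 0.910). It shares sequence with the readthrough ATP6V1G2-DDX39B, so its reads are not certain. ATP6V1B1, the renal form of the B subunit, was near 1 CPM throughout, at 0.866, 1.20 and 0.577 CPM with DMSO and 0.632, 0.463 and 0.253 CPM with 4OHT (-1.08 ± 0.46, adjusted p = 0.0828). In IMR90 cells ATP6V1B1 was at 0.897, 1.19, 0.440 and 1.42 CPM with DMSO and 0.239, 0.459, 0.345 and 0.933 CPM after bleomycin, with overlap (-1.03 ± 0.50, adjusted p = 0.124), and the call was gained without bleomycin replicate 4 (-1.51, adjusted p = 0.0433). ATP6V1A, ATP6V1C1, ATP6V1C2, ATP6V1E2 and ATP6V1F were called in neither model.

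Per kilobase, 1 form of each duplicated subunit held most of the signal in every control-shRNA library, and the leading form did not change with senescence. ATP6V1B2 made up 99.2% to 99.9% of ATP6V1B1 and ATP6V1B2 together, and ATP6V1E1 made up 98.8% to 99.5% of its pair. ATP6V1C1 held 90.5% to 98.6% and ATP6V0E1 84.7% to 89.1%. ATP6V0A1 held 74.1% to 83.6% of the 3 ATP6V0A forms with DMSO and 79.8% to 91.3% with 4OHT in ER:RAS cells, and 66.2% to 82.4% with DMSO and 82.6% to 88.4% after bleomycin in IMR90 cells. TCIRG1, which encodes the a3 form, is outside the list. ATP6V1G2 held 3.08% to 12.9% of the G forms with DMSO and 0.254% to 0.411% with 4OHT.

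**Figure D3:**
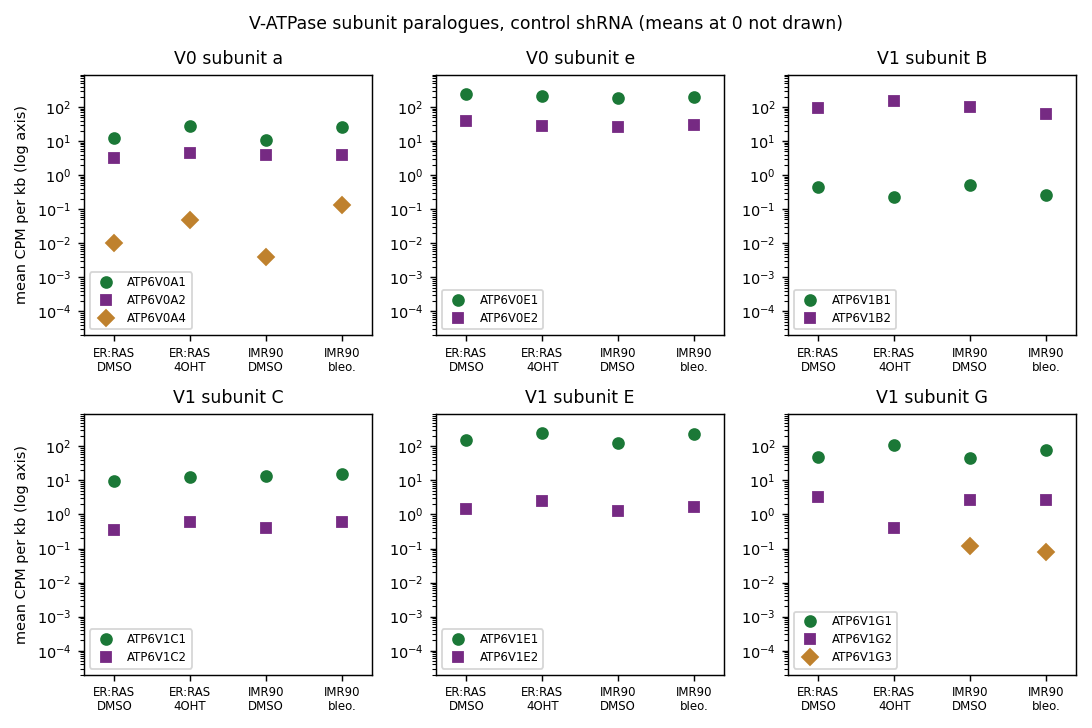
Mean CPM per kb of transcript on a log axis for the forms of 6 duplicated V-ATPase subunits in the 4 control-shRNA groups. The upper form is the same in all 4 groups for each subunit, and ATP6V1G2 lies at 3.16 CPM per kb in ER:RAS cells with DMSO and at 0.387 with 4OHT.

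The remaining ATP6V symbols were sparse. ATP6V0E2-AS1, an antisense transcript to ATP6V0E2, was at 2.75, 3.55 and 2.17 CPM with DMSO and at 0.993, 0.793 and 0.507 CPM with 4OHT, and fell by 1.98 ± 0.33 on the log2 scale (adjusted p = 0.000208). ATP6V1FNB, a gene that adjoins ATP6V1F, was at 1.63, 1.46 and 1.01 CPM with DMSO and at 0.361, 0.0661 and 0.317 CPM with 4OHT, and fell by 2.55 ± 0.51 (adjusted p = 0.00112). The groups of both genes were apart in OIS. After bleomycin ATP6V0E2-AS1 was at 2.06, 2.92, 1.78 and 2.90 CPM against 2.63, 3.21, 1.86 and 3.11 CPM, and ATP6V1FNB was at 1.44, 1.09, 1.21 and 1.92 CPM against 1.85, 1.97, 1.96 and 1.74 CPM, with overlap and no call in either. The paper's methods name a directional library kit and a strand-aware alignment, while the labels name the kit without that word and the strand setting of the counting step is not given in the sources used here. How far reads of ATP6V0E2-AS1 and ATP6V1FNB were kept apart from those of their neighbours is therefore not certain. ATP6V1G3, ATP6V0A4, ATP6V1B1-AS1, ATP6V1G2-DDX39B and the pseudogene ATP6V0CP3 did not pass the filter in either cell line, and their highest counts in any library were 4, 13, 9, 15 and 8.

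The change in OIS minus the change after bleomycin was tested in a single fit of all 42 libraries. Of 63 members tested there, 7 had a higher change in OIS and 7 a lower one, 11.1% in each direction against 8.14% and 12.1% of 15299 genes. The members with the higher change in OIS were CTSS (3.21 ± 0.78, adjusted p = 0.00286), CTSB (1.94 ± 0.35, adjusted p = 0.000104), ATP6V1B2 (1.33 ± 0.24, adjusted p = 0.000124), NPC1 (1.17 ± 0.37), GLA (1.09 ± 0.33), IDS (1.06 ± 0.18, adjusted p = 3.57e-05) and PPT1 (0.62 ± 0.21). Those with the lower change were FUCA1 (-3.84 ± 0.31, adjusted p = 6.33e-11), ATP6V1G2 (-2.97 ± 0.45, adjusted p = 7.72e-06), ATP6V1FNB (-2.06 ± 0.52), ATP6V0E2-AS1 (-1.73 ± 0.41), SGSH (-1.55 ± 0.41), GALC (-1.05 ± 0.30) and LIPA (-0.59 ± 0.20). The GLA call was lost without 4OHT replicate 1 (0.72, adjusted p = 0.109), and the NPC1 call without 4OHT replicate 3 (0.86, adjusted p = 0.102) or ER:RAS DMSO replicate 3 (1.05, adjusted p = 0.0641). The PPT1 call was lost without 4OHT replicates 1 or 3, ER:RAS DMSO replicates 1 or 3, bleomycin replicate 3 or IMR90 DMSO replicate 1 (0.53 to 0.62, adjusted p from 0.0518 to 0.0997). The LIPA call was lost without 4OHT replicates 1 or 2, ER:RAS DMSO replicates 1 or 2, bleomycin replicates 1 or 3 or IMR90 DMSO replicates 2, 3 or 4 (-0.60 to -0.47, adjusted p from 0.0503 to 0.116). Cell line, transgene and inducer differ together between the models, so their parts in these differences cannot be told apart.

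10 members were called higher in both models, which is 16.1% of the 62 tested against 6.25% of all 14010 genes tested in both. They are 76.9% of the 13 higher in OIS and 71.4% of the 14 higher after bleomycin, where the shares over all genes were 39.6% and 38.5%. These were ATP6V0A1, ATP6V0B, ATP6V0C, ATP6V1E1, ATP6V1G1, ATP6V1H, CTSS, GLA, IDS and NPC1. Of the 10, only GLA, IDS and NPC1 kept the call in both models under every alternative fit described below. The 4 lower in both, CTSF, CTSH, CTSK and CTSO, were 6.45% of the members against 9.61% of all genes. They are 26.7% of the 15 lower in OIS and 57.1% of the 7 lower after bleomycin, beside 46.6% and 57.5% over all genes. ATP6V1B2 and FUCA1 were called in opposite directions. The OIS and bleomycin comparisons share no library, and the difference between members and other genes in these shares was not tested.

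The same senescence comparison was made within the libraries carrying each COPB2 shRNA, which share none with the control-shRNA comparison. The 3 comparisons of a cell line came from the same fit and so share its estimate of the spread. Same-numbered libraries also tended to deviate together, so the 3 are not independent. In ER:RAS cells 12 members were higher and 18 lower with shRNA 1, against 15.4% and 21.5% of all genes, and 13 were higher and 20 lower with shRNA 2, against 14.9% and 22% of all genes. In IMR90 cells 13 were higher and 7 lower with shRNA 1, against 17.4% and 17.8% of all genes, and 21 were higher and 8 lower with shRNA 2, against 21.7% and 18.3% of all genes. In ER:RAS cells 11 members were higher and 13 lower in all 3 comparisons, 17.7% and 21% of the members against 12.4% and 17% of all genes. In IMR90 cells 11 were higher and 7 lower in all 3, 17.7% and 11.3% of the members against 12.7% and 12.4% of all genes. No member was called in opposite directions within a cell line.

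The members higher in all 3 OIS comparisons were ATP6V0A1, ATP6V0B, ATP6V1E1, ATP6V1G1, ATP6V1H, CTSB, CTSL, CTSS, GLA, IDS and NPC1. Those lower in all 3 were ATP6V0E2-AS1, ATP6V1FNB, ATP6V1G2, CLN3, CTSF, CTSH, CTSK, CTSO, FUCA1, GALC, IDUA, LAMP1 and SGSH. After bleomycin ATP6V0A1, ATP6V0B, ATP6V1D, ATP6V1E1, ATP6V1G1, ATP6V1H, CTSS, FUCA1, GLA, IDS and NPC1 were higher, and ATP6V1B2, CTSF, CTSH, CTSK, CTSO, GUSB and PPT1 lower, in all 3. LIPA was called in OIS with the control shRNA only, and NPC2 with the control shRNA and shRNA 2. The count with shRNA 2 in ER:RAS cells fell from 33 to 21 without 4OHT replicate 2 of that shRNA.

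**Figure D4:**
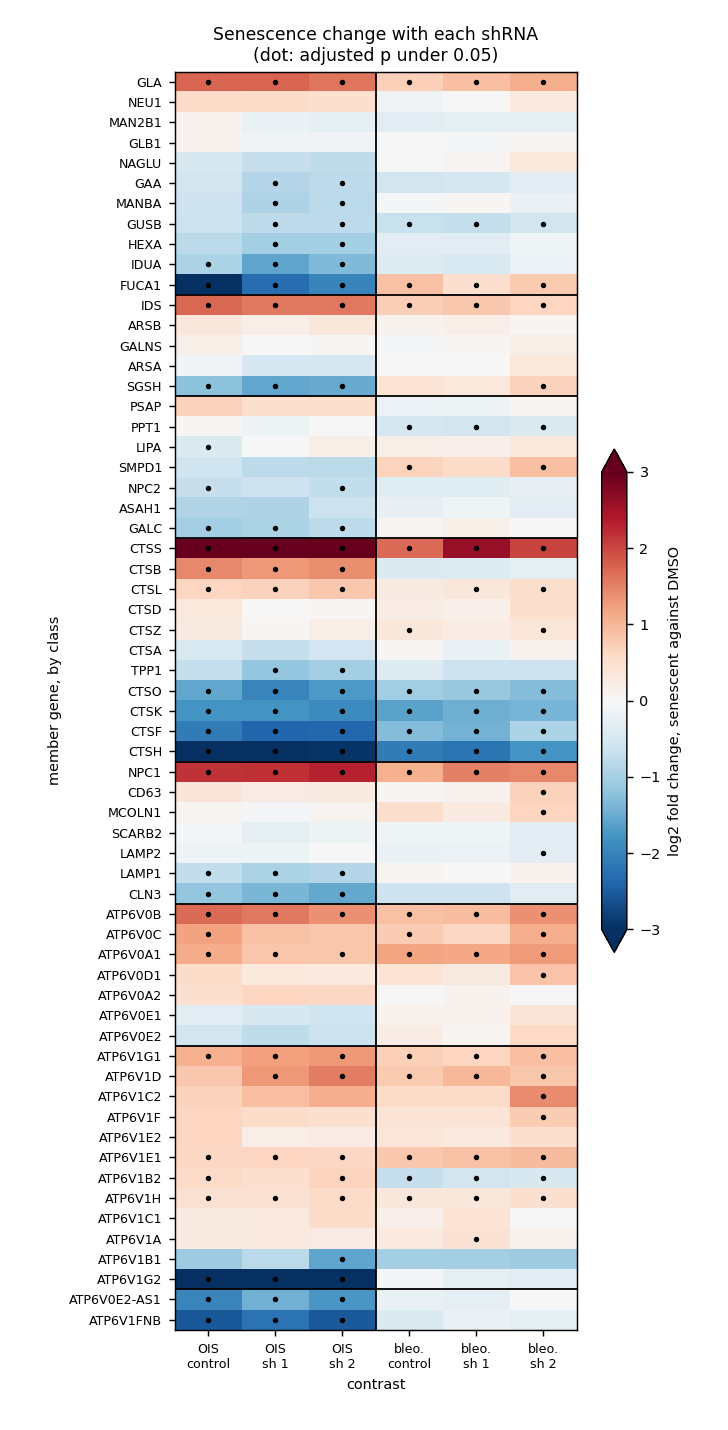
The log2 fold change of senescent against DMSO cells for 62 members (rows, by class) with the control shRNA and each COPB2 shRNA (columns, OIS left and bleomycin right), with a dot for an adjusted p under 0.05. The color is capped at 3 in either direction, and the 3 columns of a cell line never hold dots of opposite color in a row.

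In each of the 8 comparisons of 1 COPB2 shRNA with the control shRNA, between 57 and 62 of the 62 members had a log2 fold change within 0.5 of 0. With shRNA 1 or shRNA 2 alone, none of the 62 members was called in any of the 4 cell states (edgeR quasi-likelihood test). These fits had no term for replicate number, so a shift shared by same-numbered libraries counted as spread between libraries. A lack of calls therefore does not show a lack of change. The share of all genes called was 0.00699% with either shRNA in ER:RAS cells with DMSO, 0.14% and 0.224% with 4OHT, 0.00676% with either in IMR90 cells with DMSO, and 0.00676% and 0.0744% after bleomycin. At an unadjusted p under 0.05 the counts of members were 1 and 0 in ER:RAS cells with DMSO, 2 and 2 with 4OHT, 1 and 1 in IMR90 cells with DMSO and 0 and 1 after bleomycin. Over all 14297 genes tested in ER:RAS cells the counts were 116 and 133 with DMSO and 462 and 640 with 4OHT. Over all 14783 in IMR90 cells they were 165 and 166 with DMSO and 208 and 997 after bleomycin. Whether the members differed from other genes in these counts was not tested. The DESeq2 Wald test called 1 member, LIPA, with each shRNA in ER:RAS cells with 4OHT and none elsewhere. The members' median log2 fold change lay between -0.11 and 0.07 over these 8 comparisons, beside -0.08 to 0.01 over all genes.

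For the mean of both shRNAs, LIPA was the 1 member called, in ER:RAS cells with 4OHT, where 0.266% of all genes were called. The 4OHT libraries of LIPA held 38.5, 38.3 and 42.1 CPM with the control shRNA, 78.0, 65.7 and 63.1 CPM with shRNA 1 and 75.1, 70.4 and 65.5 CPM with shRNA 2. Every knockdown library lay above every control library. The change of LIPA was 0.78 ± 0.16 with shRNA 1 (adjusted p = 0.0866), 0.81 ± 0.16 with shRNA 2 (adjusted p = 0.0536) and 0.80 ± 0.14 for the mean (adjusted p = 0.0233). The call for the mean was lost without any of the 9 libraries other than replicate 2 of shRNA 1 (0.75 to 0.87, adjusted p from 0.0504 to 0.187).

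The corresponding mean changes of LIPA were 0.27 ± 0.14 in ER:RAS cells with DMSO, 0.11 ± 0.12 in IMR90 cells with DMSO and 0.12 ± 0.12 after bleomycin, none of them called. The difference between the mean change with 4OHT and with DMSO was 0.52 ± 0.19, which was not called (adjusted p = 1.00, unadjusted p = 0.0163). In the other 3 states no member was called for the mean, where 0.014% of all genes were called in ER:RAS cells with DMSO, 0.00676% in IMR90 cells with DMSO and 0.0474% after bleomycin, and 0, 0 and 1 members had an unadjusted p under 0.05. Over all genes, in the same order, 137 of 14297, 167 of 14783 and 433 of 14783 had such a p. The DESeq2 Wald test called 1 member for the mean in ER:RAS cells with 4OHT, again LIPA, and none in those 3.

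FUCA1 had the largest change among the members in OIS cells with each shRNA. It was at 2.35, 1.322 and 1.71 CPM with the control shRNA, at 4.78, 3.87 and 3.67 CPM with shRNA 1 and at 4.96, 2.94 and 2.696 CPM with shRNA 2, and the knockdown libraries lay above the control libraries. The mean change of FUCA1 was 1.08 ± 0.26 and was not called (adjusted p = 0.165), but it was with all 42 libraries in one fit (adjusted p = 0.00520). All knockdown levels of FUCA1 remained below the 10.7 CPM of the lowest DMSO library with the control shRNA.

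No member had a knockdown change that differed between senescent and DMSO cells at an adjusted p under 0.05, where 0.014% of all genes were called in ER:RAS cells and 0% in IMR90 cells. At an unadjusted p under 0.05 this difference was seen for 2 members in ER:RAS cells, LIPA and FUCA1, and for 0 in IMR90 cells, and the DESeq2 Wald test called 0 in both. Over all genes it was seen for 295 of 14297 in ER:RAS cells and 154 of 14783 in IMR90 cells. Here too the fit had no term for replicate number, so a lack of calls does not show a lack of difference. The OIS and knockdown comparisons share the 4OHT libraries with the control shRNA.

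**Figure D5:**
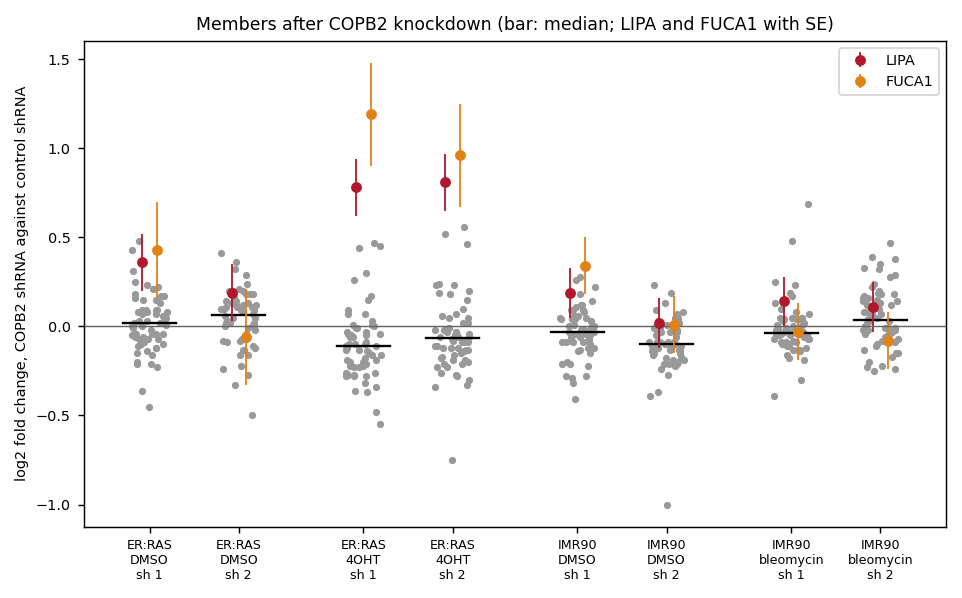
The log2 fold change of each of 62 members with COPB2 shRNA 1 or 2 against the control shRNA in the 4 cell states, with a bar at the median and with LIPA and FUCA1 in color with bars of 1 standard error. The points center near 0, and LIPA and FUCA1 stand at 0.78 to 1.19 in ER:RAS cells with 4OHT.

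A further list of lysosomal genes outside the members, which includes trafficking receptors, transporters and accessory subunits, was examined in the same way. In OIS, 10 of its 63 tested genes were higher and 14 lower, 15.9% and 22.2% against 15.5% and 20.2% of all genes, with a median log2 fold change of -0.15. After bleomycin 17 of 64 were higher and 2 lower, 26.6% and 3.12% against 15.4% and 15.8% of all genes, with a median of 0.25. LAPTM5, a lysosomal membrane protein known from blood cells, was called higher in both models, at a mean of 9.46 CPM with 4OHT and 1.12 CPM after bleomycin against 0.0541 and 0.122 CPM with DMSO, which lie under the level of 3 counts in a library. In OIS the ribonuclease RNASET2 (2.35 ± 0.35) and the sulfatase ARSG (2.32 ± 0.19) rose, and the acid phosphatase ACP5 (-2.02 ± 0.52) and the carboxypeptidase SCPEP1 (-1.93 ± 0.21) fell. The channel MCOLN2 was also called lower in OIS, at a mean of 0.168 against 0.560 CPM. After bleomycin the sialomucin CD68 rose (1.80 ± 0.30) and ACP5 (-2.15 ± 0.41) and SCPEP1 (-0.88 ± 0.15) fell. LAMP3 had no count in the IMR90 DMSO libraries and a mean of 0.583 CPM after bleomycin.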

How the data were processed

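PolyA RNA-seq of the 42 libraries was deposited by the authors as 1 table of raw read counts per gene symbol, with no coordinates. The sources differ on its making. The paper's methods name a directional library kit and TopHat on hg19 with the fr-firststrand library type, and its reporting summary lists HTSeq, while the submitters' processing notes name DRAGEN, STAR 2.7.8a, DESeq2 1.32.0 and hg38. The counting mode and the strand setting of the counting step are not given in the sources used here.

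Groups were taken from the sample labels. Counts were fitted with edgeR 4.0.16 (quasi-likelihood test, robust, TMM scaling, filterByExpr) in R 4.3.3, separately for the 18 ER:RAS and the 24 IMR90 libraries and jointly for OIS minus bleomycin. P-values were adjusted by Benjamini-Hochberg over all genes tested, with calls made under 0.05. Errors of log2 fold changes are standard errors. CPM levels were scaled over all 42 libraries, so that their ratios differ slightly from fitted fold changes. The fits were tested on simulated counts, drawn independently for each library with no effect of replicate number. That check therefore does not cover shifts that libraries share. Total counts of 13148194 to 23597310 put 3 counts at 0.127 to 0.228 CPM, which covers counting error only.

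The members and lists were chosen with earlier results of these data known. Values in every library are given for GLB1 and LAMP1, for the highest and lowest member of each class in OIS and after bleomycin, and for members called in the difference or in a knockdown comparison. Other called members are given by fold change. Of the further lysosomal genes, the 3 highest and 3 lowest called changes in each model are named.

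Alternatives were DESeq2 size factors, the DESeq2 1.42.0 Wald test, no filter, other sets of libraries, the replicate number as a block and leaving out libraries. The labels give no meaning to the replicate numbers. Deviations of same-numbered libraries from their group means correlated over 0.1 in every pair for 6 of the 21 contrasts, namely OIS with either COPB2 shRNA, shRNA 2 in IMR90 cells with DMSO and the knockdown contrasts after bleomycin. In those 6 the block moved no count of called members by over 1.5 times.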

Additional observations from a re-analysis of the deposited data

Results flagged for a closer look

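Of 58 pairs of a named gene and an IMR90 control-shRNA group of 4 libraries, 7 held a library far from the other 3. Chance gives about 1 in 20 for independent pairs. Genes measured in the same libraries are not independent, so the 7 cannot be read against that rate. DMSO replicate 1 was that library for ATP6V0B (141.6 CPM, others 66.97 to 71.5), ATP6V0E2 (63.42, others 36.5 to 39.13), FUCA1 (16.69, others 13.21 to 13.62), GLA (21.48, others 15.53 to 15.75) and SMPD1 (229 CPM, others 133.2 to 149.3). Bleomycin replicate 4 was that library for CTSS (24.63 CPM, others 6.443 to 9.433), and bleomycin replicate 2 for ATP6V1E1 (320.1 CPM, others 289.7 to 294.3).

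The change in OIS differed from the change after bleomycin for 14 members (edgeR quasi-likelihood test, all 42 libraries). The difference in log2 fold change was positive for CTSS (3.21), CTSB (1.94), ATP6V1B2 (1.33), NPC1 (1.17), GLA (1.09), IDS (1.06) and PPT1 (0.62). It was negative for FUCA1 (-3.84), ATP6V1G2 (-2.97), ATP6V1FNB (-2.06), ATP6V0E2-AS1 (-1.73), SGSH (-1.55), GALC (-1.05) and LIPA (-0.59).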

How the results depend on the processing

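No call turned direction under any alternative tried. Of the 28 members called in OIS, 13 were called under every alternative, as were 14 of the 21 after bleomycin and 9 of the 14 in the difference between the models. With only the groups compared in the fit, which leaves fewer libraries, the number called was 13 in OIS and 18 of 29 after bleomycin with COPB2 shRNA 2. The OIS calls lost in that fit were ATP6V0A1, ATP6V0C, ATP6V1B2, ATP6V1E1, ATP6V1G1, ATP6V1H, CLN3, CTSL, CTSO, GALC, IDUA, LAMP1, LIPA, NPC2 and SGSH, and the bleomycin calls lost were ATP6V0C, ATP6V1H, CTSZ and PPT1. In the difference between the models it lost GALC, LIPA, NPC1 and PPT1. With no filter on low counts the OIS calls of ATP6V1B2, ATP6V1H, CLN3, IDUA, LAMP1, LIPA and NPC2 and the bleomycin calls of ATP6V0C, ATP6V1H, CTSS and CTSZ were lost, as were LIPA and PPT1 in the difference. DESeq2 size factors and the DESeq2 Wald test each lost CLN3, IDUA, LAMP1, LIPA and NPC2 in OIS, and the size factors also LIPA in the difference. All 42 libraries in one fit lost LAMP1, LIPA and NPC2 in OIS and ATP6V0C and SMPD1 after bleomycin. Leaving out 1 library gave 19 to 25 members in OIS, 17 to 23 after bleomycin, 12 to 15 in the difference and 21 to 28 in OIS with COPB2 shRNA 2. In ER:RAS cells with 4OHT, COPB2 shRNA 1 gave 1 member by the DESeq2 Wald test, 2 with all 42 libraries in one fit and 2 with the replicate block, instead of 0. There COPB2 shRNA 2 gave 1 member in each of these 3, instead of 0. For the mean of both shRNAs 1 member became 2 with all 42 libraries and 2 with the replicate block, 0 without the filter or with only the groups compared, and 0 to 1 without single libraries. These counts, and those with the replicate block below, are given without the share of all genes called in the same fit. They therefore do not show whether the members moved apart from other genes. The cause of the changes was not tested.

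In the other 15 contrasts not every same-numbered pair correlated over 0.1, which does not show that the numbers carry no pairing. Same-numbered pairs had a median correlation of 0.604 in ER:RAS and 0.363 in IMR90 cells, against -0.469 and -0.0904 for unlike numbers. Deviations from a group mean cancel out within the group, so positive values for like numbers lower those for unlike numbers. The values for unlike numbers are therefore not an independent comparison. In these 15 the block gave 41 members in OIS, 29 after bleomycin and 21 in the difference. With shRNA 1 and shRNA 2 after bleomycin it gave 28 and 41. In OIS with shRNA 1 and shRNA 2, where every pair correlated, the block gave 43 and 43 members, and it moved no other count of calls by over 1.5 times apart from those given above. Named members that gained a call with the block were ATP6V0A2, ATP6V0E2, ATP6V1B1, GUSB, PSAP and SMPD1 in OIS, CLN3, CTSB and SGSH after bleomycin, and FUCA1 for the mean of both shRNAs in ER:RAS cells with 4OHT (adjusted p = 0.0221). Libraries correlated best with their own number in 14 of 18 ER:RAS and 23 of 24 IMR90 cases, a hint from the data and not the design. With 3 or 4 libraries a group, members under about 1 CPM, such as ATP6V1B1, have errors near 0.5 on the log2 scale.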
